A study of Mus musculus with 8 samples.

Results

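The replication machinery genes described here are 41 genes that encode the proteins which license origins of DNA replication, build the fork, copy the DNA and supply its nucleotides. They were chosen by name and role from the 54232 Ensembl genes counted in each table. All 41 symbols were matched to 1 counted gene, and all 41 passed the low-count filter of each comparison. Their transcripts were measured by RNA-seq of mRNA from the E14 line of mouse embryonic stem cells, for which the labels give the strain 12910la. There were 4 groups of 2 libraries.

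The groups were cells with a Cas9-gRNA knockout of Ssrp1 (Ssrp1 KO) and their control, and cells with an shRNA knockdown of Usp7 (Usp7 KD) and their control. All were grown on gelatin in medium with 15% FBS and 10 ng/ml LIF. The knockdown protocol used the pSuper puro plasmid at 1000 ng, and after 24 h selected with 1 ug/ml puromycin for 3 days. Whether the KO libraries come from 1 clone or several, whether the Ssrp1 control is the parental line, and which plasmid the Usp7 control received are not given in the labels. Ssrp1 is a subunit of FACT, a histone chaperone that handles nucleosomes during transcription and replication, and Usp7 is a deubiquitinase. The comparisons ask how the transcripts of the replication genes differ between libraries labelled Ssrp1 KO or Usp7 KD and their controls.

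In G1 the origin recognition complex, made of ORC subunits, marks origins and, with Cdc6 and Cdt1, loads the Mcm2-7 helicase onto DNA. In S phase Cdc45 and the GINS complex join the helicase and start unwinding, after which polymerase alpha with primase starts each strand and polymerases delta and epsilon extend it. Many of these genes are known targets of E2F transcription factors, which the RB family of proteins restrains until cells enter S phase. Embryonic stem cells cycle fast with a short G1 phase and are known for high levels of many licensing factors.

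The E2F link can be read in the sequence just before the starts of these genes. The RefSeq promoter table of GRCm38.p6, the assembly called mm10, held 34 of the 41 genes, with 41 starts in all. An E2F motif, spelled as TTTCCCGC, TTTCGCGC, TTTGCCGC or TTTGGCGC on either strand, lay within 250 bases upstream of 9 of these 41 starts (21.95%), against 611 of 32851 promoters in the table (1.86%). The 9 genes were Mcm5, Mcm6, Mcm7, Cdc6, Orc1, Orc3, Gins3, Pola1 and Rfc3. Their matches follow as 30 bases of the gene's own strand, with the match in capitals, and the one nearest the start where there are several. In Mcm5 a pair of matches on opposite strands overlap and both are in capitals, and Mcm6 held such a pair farther upstream, for 3 matches in all.

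Mcm5, chr8:75109347-75109376, plus strand: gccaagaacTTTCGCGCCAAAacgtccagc

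Mcm6, chr1:128359734-128359763, minus strand: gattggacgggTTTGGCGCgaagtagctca

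Mcm7, chr5:138172030-138172059, minus strand: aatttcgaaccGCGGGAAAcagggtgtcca

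Cdc6, chr11:98908002-98908031, plus strand: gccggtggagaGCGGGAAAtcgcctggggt

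Orc1, chr4:108579416-108579445, plus strand: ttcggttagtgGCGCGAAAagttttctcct

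Orc3, chr4:34614965-34614994, minus strand: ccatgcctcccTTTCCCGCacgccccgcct

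Gins3, chr8:95633507-95633536, plus strand: gcgagtgcggcGCGGGAAAgcgagtttgaa

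Pola1, chrX:93632275-93632304, minus strand: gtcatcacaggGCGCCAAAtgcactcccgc

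Rfc3, chr5:151651209-151651238, minus strand: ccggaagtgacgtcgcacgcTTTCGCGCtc

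The first base of the printed match lay between 10 bases (Rfc3) and 165 bases (Mcm7) before the start. The CCAAT letters, also on either strand, lay upstream of 23 of the 41 starts (56.1%), against 33.8% of all promoters. The GC box letters GGGCGG lay upstream of 27 of the 41 starts (65.9%), against 32.7% of all promoters. Orc2 and Orc4, the members that passed the test below, held no E2F match in any listed promoter. The bases before their most upstream starts are printed here because these genes carry the clearest change, with CCAAT and GC box letters of either strand in capitals. For Orc4 the bases next to that start, which lie inside the annotated gene, are left out.

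Orc2, chr1:58505110-58505359, minus strand: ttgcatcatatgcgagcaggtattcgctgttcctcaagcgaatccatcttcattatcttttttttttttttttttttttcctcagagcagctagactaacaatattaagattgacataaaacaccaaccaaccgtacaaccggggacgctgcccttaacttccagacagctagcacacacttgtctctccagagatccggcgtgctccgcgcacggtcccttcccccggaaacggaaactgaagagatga

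Orc4, chr2:48950278-48950484, minus strand: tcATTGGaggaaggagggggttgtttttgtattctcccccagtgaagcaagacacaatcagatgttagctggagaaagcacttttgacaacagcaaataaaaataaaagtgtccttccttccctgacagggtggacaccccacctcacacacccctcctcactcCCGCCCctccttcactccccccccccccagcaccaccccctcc

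A letter match is a description of the sequence and not a measured binding site. The 9 genes with an E2F match had a median log2 change of -0.10 in libraries labelled Ssrp1 KO and -0.26 in Usp7 KD libraries, and the 25 genes without one had -0.12 in Ssrp1 KO and -0.30 in Usp7 KD. In Usp7 KD libraries 9 of the 9 genes with a match and 23 of the 25 without lay below 0.

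Total counts ranged from 15879056 to 18361130 per library, and the labels do not tell whether the 2 replicates of a group are separate cultures; p-values therefore cover the spread between libraries, which may be technical. The Ssrp1 transcript stood at 399 and 119.5 CPM (read counts scaled to the TMM-adjusted library size) in the libraries labelled Ssrp1 KO, against 422 and 459 CPM in their controls, and the change did not pass the test (log2 -0.77, SE 0.45, adjusted p = 0.41 in edgeR). KO replicate 1 thus lay near the controls, and every direction given here is that of the libraries labelled KO. The Usp7 transcript fell to 117 and 128 CPM in Usp7 KD libraries, against 385 and 380.1 CPM in their controls (log2 -1.64, SE 0.19, adjusted p = 0.0012). Supt16, the other FACT subunit, passed in neither comparison. The 10 embryonic stem cell markers were detected in every library, and none was called in either comparison. Their sum was 8211 and 7976 CPM in libraries labelled Ssrp1 KO, against 10437 and 8461 CPM in controls, and 5609 and 5220 CPM in Usp7 KD libraries, against 7257 and 6270 CPM in controls. Of the 10 fibroblast markers, 3 to 5 were at 0 in each library of the Ssrp1 experiment, and over all libraries they summed to 21.9 to 58.5 CPM. The 7 primitive endoderm markers, 1 of them called higher in Ssrp1 KO, summed to 29.8 and 22.6 CPM in libraries labelled Ssrp1 KO, against 3.87 and 7.07 CPM in controls, and to 15.0 and 20.7 CPM in Usp7 KD libraries, against 9.59 and 11.5 CPM in controls. Mitochondrially encoded genes took 7.31% and 2.81% of counts in libraries labelled Ssrp1 KO, against 0.732% and 0.776% in their controls. Markers of the 2-cell-like state summed to 378 and 1088 CPM in libraries labelled Ssrp1 KO, against 49.6 and 143 CPM in controls, and to 23.5 and 19.8 CPM in Usp7 KD libraries, against 4.0 and 3.17 CPM in controls. Of these 8 markers, 7 of 7 tested were called higher in Ssrp1 KO (3.39% of all genes) and 4 of 5 in Usp7 KD (2.36% of all genes). Of 5 neural markers, 1 was called higher in Usp7 KD. The part of these shifts in the results below was not tested.

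Levels set the scale of what follows. Per kilobase of exon, averaged over the 4 group means, the replication genes ran from 4.71 CPM for Orc4 to 205 CPM for Pcna. Pcna, the sliding clamp that holds polymerases on DNA, was followed by the helicase subunit genes Mcm5 (197 CPM per kb) and Mcm3 (155 CPM per kb). The lowest after Orc4 were Fen1, the flap nuclease of Okazaki fragments, with 5.85 CPM per kb, and the primase subunit gene Prim2 with 8.65 CPM per kb. Where exons overlap, counts may be shared with neighbours or reads left uncounted. The strand setting of the counting is not given in the sources used here. In 8 of the 41 genes over 10% of the exon bases lie in exons of another gene, led by Fen1 with 84.2% (Tmem258 and Gm10143), Gins2 with 67.3% (Gse1) and Orc2 with 29.8% (Nif3l1). How this overlap bears on the low level of Fen1 was not tested. Pcna and Tyms have annotated pseudogene copies, and how reads were split among copies is not known here. The summed level of the 41 genes was 7554 and 7657 CPM in libraries labelled Ssrp1 KO, against 9595 and 8067 CPM in their controls. In the Usp7 experiment the sum was 7494 and 6668 CPM in KD libraries, against 9409 and 8163 CPM in controls. In both experiments the sums of the perturbed libraries lay below those of both controls; in such bulk samples fewer cells in a cycle phase and less RNA per cell cannot be told apart.

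**Figure D1:**
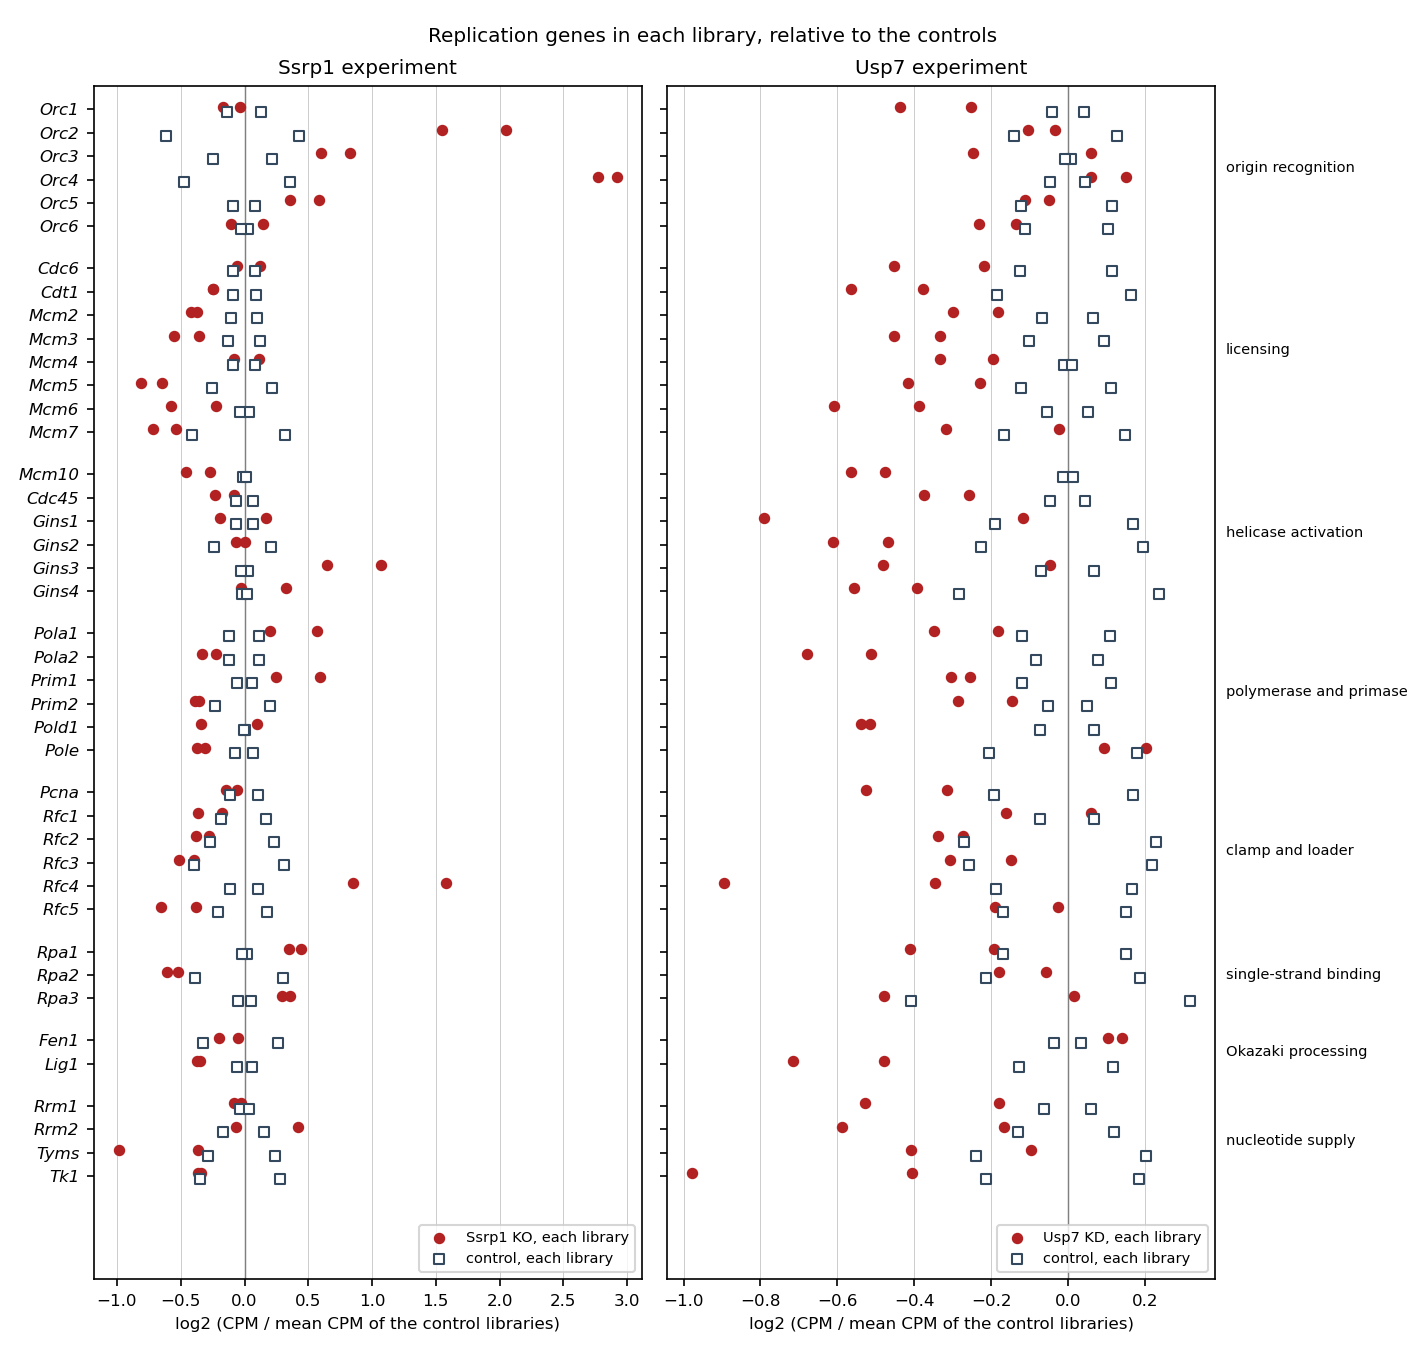
Each of the 41 genes (y axis, grouped by role) in each library, as the log2 ratio of its CPM to the mean CPM of the control libraries (x axis; the scales of the panels differ); filled circles are KO or KD libraries and open squares are controls. Orc4, Orc2 and Rfc4 stand to the right in the Ssrp1 panel, and most circles of the Usp7 panel lie left of 0.

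In the libraries labelled Ssrp1 KO, Orc4 rose 7.17-fold and Orc2 3.53-fold; both encode subunits of the origin recognition complex. These were the 2 of 41 members called higher, by an adjusted p below 0.05 from the quasi-likelihood test of edgeR, a share near the 3.39% of all genes (534 of 15757) called higher. No member was called lower, beside 0.324% of all genes (51 of 15757). At an unadjusted p under 0.05 there were 5 members higher and 1 lower, where 13.3% of all genes were higher and 4.95% lower. DESeq2 called 3 members higher (5.7% of all genes) and 0 lower (1.34%), and limma-voom called 2 higher (2.34%) and 0 lower (0.209%). The median log2 change of the 41 genes was -0.10, against 0.03 over all genes tested, with a range of -0.73 to 2.84. Of the 41, 16 lay above 0 (51.9% of all genes) and 25 below (48.1%). In the controls 30 of the 41 were higher in replicate 1 than in replicate 2, and 22 in the KO libraries. The median log2 gap in the controls was 0.17, against -0.07 over all genes. Without control replicate 1 the median change of the 41 was -0.02, and 22 lay below 0. The libraries did not overlap between groups for 10 genes that were higher and 16 that were lower, where 27.3% and 22.7% of all genes had such a separation upward and downward.

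Orc4 (chr2:48902824-48950277, minus strand) encodes an ATPase-fold subunit of the complex that marks origins. It had 58.4 and 64.8 CPM in the libraries labelled Ssrp1 KO, against 6.16 and 11.0 CPM in their controls. Both KO libraries lay above both controls, with a mean of 61.6 ± 4.54 CPM in KO and 8.56 ± 3.4 CPM in controls (SD, n = 2 each). The change was 2.84 on the log2 scale (SE 0.36, adjusted p = 0.0072 in edgeR). It was 2.86 without KO replicate 1, whose Ssrp1 level was near the controls (adjusted p = 2.3e-10), and 2.47 without control replicate 1 (adjusted p = 0.055), where it was no longer called.

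Orc2 (chr1:58462771-58505109, minus strand) encodes another core subunit. It had 150.3 and 106 CPM in libraries labelled Ssrp1 KO, against 23.7 and 48.9 CPM in their controls. The groups did not overlap, with a mean of 128 ± 31.3 CPM in KO and 36.3 ± 17.8 CPM in controls (SD, n = 2 each), so the controls were the more uneven relative to their mean. The log2 change was 1.82 (SE 0.37, adjusted p = 0.025). It was 1.5 without KO replicate 1 and 1.37, no longer called, without control replicate 1, again with 1 library left in a group. Nif3l1, whose exons overlap those of Orc2 on the other strand, had a log2 change of -0.10 (SE 0.36, adjusted p = 0.92).

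The other ORC subunit genes did not pass the test. Orc3 (chr4:34570796-34614944) had 113 and 96.3 CPM in libraries labelled Ssrp1 KO, against 53.5 and 73.6 CPM in controls. Both KO libraries lay above both controls (log2 change 0.72, SE 0.28, adjusted p = 0.20). Orc5 also separated, with 71.5 and 60.9 CPM in KO and 50.6 and 44.7 CPM in controls (log2 change 0.47, adjusted p = 0.41). Orc6, which joins the complex as its least bound subunit, had 173 and 146 CPM in KO and 159.5 and 153 CPM in controls. Orc1, the subunit whose protein is known to be degraded after G1 in human cells, had 116 and 127 CPM in KO and 143 and 118 CPM in controls. For Orc6 and Orc1 the groups overlapped. Over the 6 ORC genes the median log2 change was 0.60, with 5 above 0, although Orc3, Orc5 and Orc6 turned to the other sign in a fit with an offset for GC content and length.

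**Figure D2:**
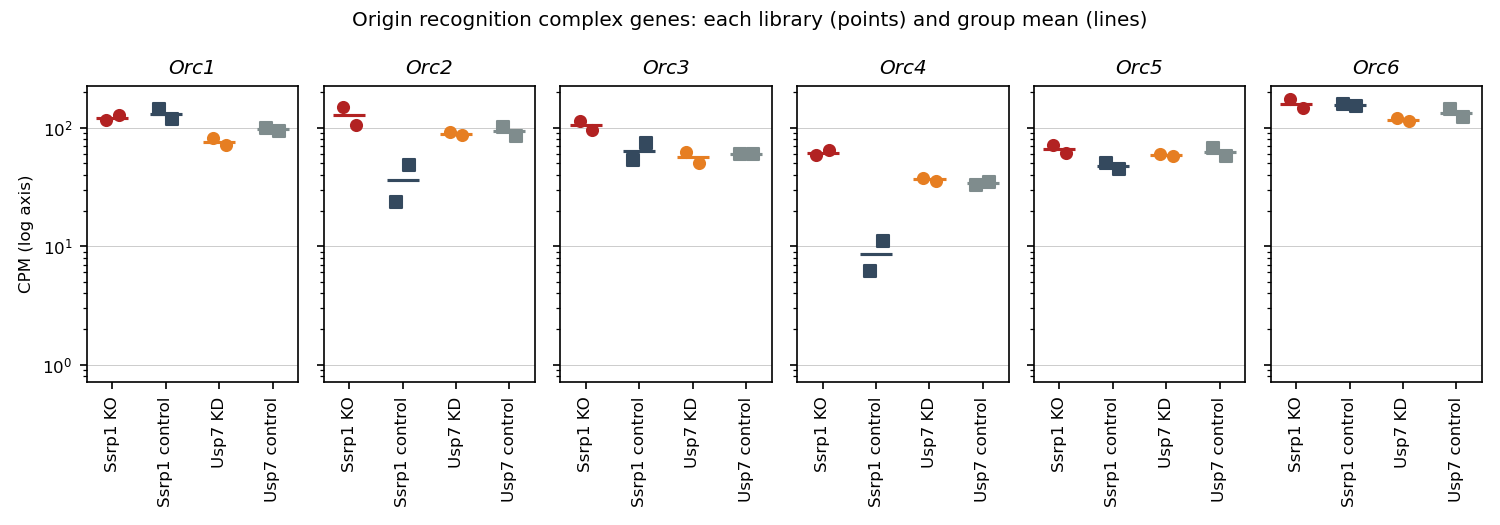
CPM (log axis) of the 6 ORC subunit genes in the libraries (points) of the 4 groups on the x axis, with lines at group means. Orc4 and Orc2 have their lowest values in the Ssrp1 control libraries, where Orc4 stood at 6.16 and 11.0 CPM. Values were scaled within each experiment.

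The levels of Orc4 and Orc2 in the 4 groups follow. Orc4 stood at 8.26 CPM per kb in libraries labelled Ssrp1 KO and 1.15 CPM per kb in their controls, and at 4.90 CPM per kb in Usp7 KD libraries and 4.55 CPM per kb in their controls. The Usp7 control libraries are also labelled as control E14 cells, and their Orc4 values of 32.9 and 35.0 CPM lay between the KO and control values of the Ssrp1 experiment. Orc2 had 102 and 84.8 CPM in Usp7 controls, below both KO libraries and above both controls of the Ssrp1 experiment. The tables were scaled separately, and scaling over all 8 libraries would move the levels by -5.54% to 9.34%. No test separates the experiments from the cultures behind them.

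Of the genes for licensing, which load the helicase, none was called in the Ssrp1 comparison. Of 8 genes, 6 had both KO libraries below both controls, beside 22.7% of all genes, and the median log2 change was -0.39. Mcm5 (chr8:75109569-75128439), a helicase subunit gene and among the most abundant of the 41, had 555 and 622 CPM in KO and 1133 and 816 CPM in controls. Its groups did not overlap, with the higher value in control replicate 1 (log2 change -0.73, SE 0.31, adjusted p = 0.24). Mcm7 had 504 and 569.9 CPM in KO and 1031 and 623 CPM in controls, again with the high value in control replicate 1 (log2 change -0.62, SE 0.33, adjusted p = 0.35). Mcm3 had 526 and 459.6 CPM in KO and 732 and 614 CPM in controls (log2 change -0.45, SE 0.29, adjusted p = 0.46). Mcm2 (-0.39), Mcm6 (-0.39) and Cdt1 (-0.25), the loader that geminin restrains, also separated downward on the log2 scale. Mcm4 and Cdc6, the ATPase that works with ORC in loading, overlapped between groups, with log2 changes of 0.02 and 0.03 that turned negative with RLE factors.

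Among the genes that activate the helicase, Gins3 had the largest upward change. It had 43.6 and 32.4 CPM in libraries labelled Ssrp1 KO, against 21.1 and 20.4 CPM in their controls. Both KO libraries lay above the controls (log2 change 0.87, SE 0.32, adjusted p = 0.17). The other GINS subunit genes Gins1, Gins2 and Gins4 overlapped between groups, with log2 changes of 0.00, -0.03 and 0.16. Mcm10, a factor for helicase activation, and Cdc45, a subunit of the active helicase, had both KO libraries below both controls, with log2 changes of -0.36 for Mcm10 and -0.16 for Cdc45.

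At the fork itself the clamp loader gene Rfc4 stood apart from its partners. Rfc4 (chr16:23113943-23127737) had 121 and 73.4 CPM in libraries labelled Ssrp1 KO, against 37.5 and 43.7 CPM in their controls. Both KO libraries lay above both controls, KO replicate 1 most (log2 change 1.26, a 2.40-fold difference, SE 0.31). The adjusted p was 0.052 in edgeR, and 0.015 in DESeq2. With 1 KO library left, the log2 change was 1.57 without KO replicate 2 and 0.79, not called, without KO replicate 1. KO replicate 1, where Rfc4 was highest, is the library whose Ssrp1 level was near the controls. Eif4a2, which shares 12.7% of the exon bases of Rfc4 on the other strand, rose to 1080.2 and 1465 CPM in KO, against 342 and 557 CPM in controls (log2 change 1.5, SE 0.35, adjusted p = 0.041); how many Rfc4 counts come from it was not tested. The other loader genes pointed the opposite way, without passing the test. Rfc5 had 161 and 133 CPM in KO and 238 and 182 CPM in controls (log2 change -0.51, SE 0.27, adjusted p = 0.37), and its groups did not overlap. Rfc1, Rfc2 and Rfc3 had log2 changes of -0.27, -0.33 and -0.45. The groups of Rfc1 and Rfc3 overlapped. Those of Rfc2 separated narrowly, at 135 and 145.0 CPM in KO and 207 and 145.8 CPM in controls. Pcna had 456 and 484 CPM in KO and 543 and 465 CPM in controls, which overlapped (log2 change -0.10).

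The polymerase and primase genes split in direction and none passed the test. The catalytic subunit genes Pola1 of polymerase alpha and Prim1 of primase had both KO libraries above both controls, with log2 changes of 0.39 and 0.43. Their partner subunit genes pointed the other way. Pola2 had a log2 change of -0.28, and Prim2, which had 53.7 and 52.4 CPM in KO and 79.1 and 58.5 CPM in controls, one of -0.37, each with both KO libraries below both controls. Pole, the catalytic subunit of polymerase epsilon, had 108 and 103 CPM in KO and 127 and 140.2 CPM in controls, without overlap (log2 change -0.34, SE 0.26, adjusted p = 0.54). Pold1, the catalytic subunit of polymerase delta, had overlapping groups (log2 change -0.10). With the GC and length offset, Pola1 and Prim1 turned to the other sign.

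The 3 subunit genes of RPA, which coats single-stranded DNA, were also split. Rpa2 had 155 and 145 CPM in libraries labelled Ssrp1 KO, against 274 and 169.7 CPM in controls (log2 change -0.56, SE 0.30, adjusted p = 0.35). Rpa1 and Rpa3 had both KO libraries above the controls, with log2 changes of 0.40 and 0.33. Of the nucleotide supply genes, Tyms, which makes thymidylate, had 130.3 and 84.7 CPM in KO and 198 and 137 CPM in controls (log2 change -0.64, SE 0.31, adjusted p = 0.31). The KO libraries of both Rpa2 and Tyms lay below their controls. Rrm1 and Rrm2, the subunits of ribonucleotide reductase, and Tk1, the thymidine kinase of the salvage route, overlapped between groups, Tk1 narrowly at 97.3 and 95.6 CPM in KO and 149.7 and 96.7 CPM in controls. Fen1 had 8.41 and 9.31 CPM in KO and 11.6 and 7.69 CPM in controls, which overlapped, and the ligase gene Lig1 had both KO libraries below its controls (log2 change -0.36).

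The change of the replication genes in libraries labelled Ssrp1 KO ran with their base composition. Across the 41 genes, the log2 change and the GC content of the longest transcript had a Spearman rho of -0.53 and a Pearson r of -0.54. Across all 15729 genes with a GC value rho was -0.41 and r -0.40; genes share these 4 libraries and are not independent replicates. Genes near 36% GC had a median log2 change of 1.44 (347 genes), which is where Orc4 lies at 36.8% GC. Genes near 44% GC had a median of 0.33 (2699 genes), where Orc2 lies at 44.4% and Rfc4 at 43.5%. Orc4, Orc2 and Rfc4 thus lay above the median of genes like them in GC. With an offset for GC content and exon length the log2 change was 1.67 for Orc4, which was still called (adjusted p = 0.040), 1.41 for Orc2 (adjusted p = 0.056) and 0.64 for Rfc4 (adjusted p = 0.28). The median of the 41 genes moved to -0.30 under that offset. In the Usp7 experiment the rho was -0.32 across the 41 genes and -0.14 across all 15903 genes.

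**Figure D3:**
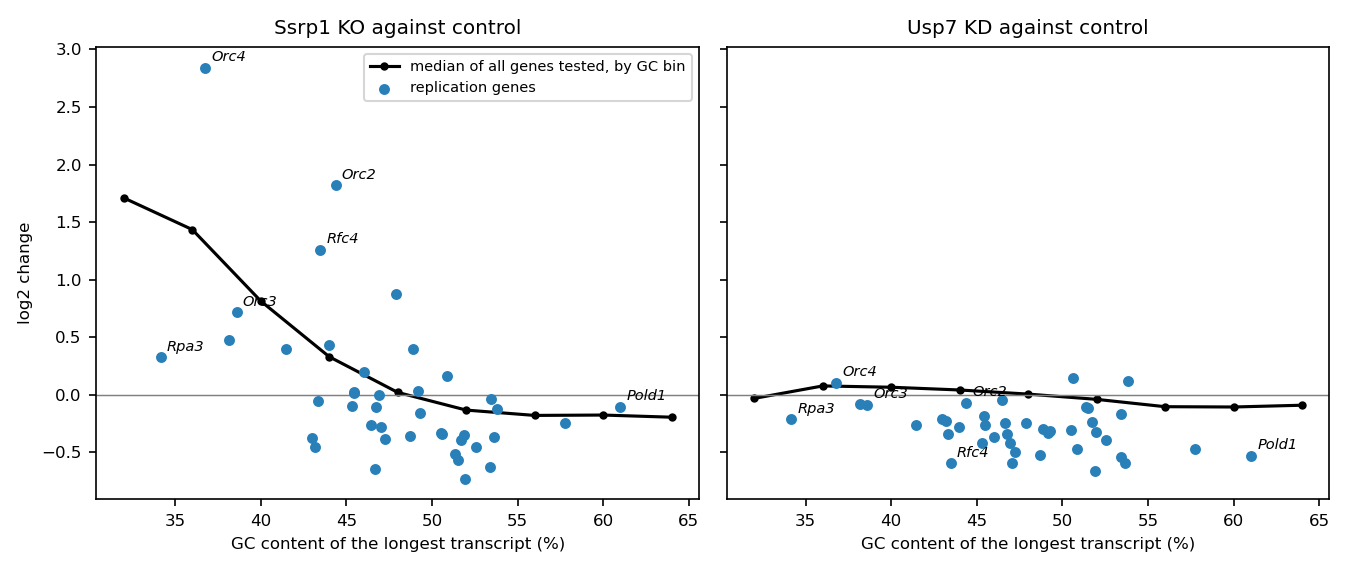
Log2 change (y axis) of the 41 genes (points) against the GC content of the longest transcript in percent (x axis), with the median of all genes tested by GC bin as a line, for libraries labelled Ssrp1 KO (left) and Usp7 KD (right) against their controls. In the left panel the line stands at 1.71 at 32% GC and at -0.19 at 64% GC, and Orc4, Orc2 and Rfc4 lie above it.

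In Usp7 KD libraries the replication genes stood a little lower than in controls, with a median change below 0 in each of the 8 roles, and no gene of the 41 passed the test. The median log2 change was -0.30, against -0.02 over all genes tested, and 38 of the 41 genes lay below 0, where 51.6% of all genes did and 48.4% lay above. No member was called in either direction in edgeR, beside 2.36% of all genes higher (376 of 15915) and 0.628% lower (100 of 15915). DESeq2 also called 0 members, beside 3.07% of all genes higher and 1.31% lower, and limma-voom 0, beside 2.22% higher and 0.559% lower. At an unadjusted p under 0.05, 10 members were lower and 0 higher, where 7.18% of all genes were lower and 9.52% higher. Both KD libraries lay below both controls for 26 genes, where 23.4% of all genes did so, and above both for 2 genes, where 24.6% of all genes did so. The changes of the 41 ranged from -0.66 to 0.15 on the log2 scale, so the largest of them is under a 2-fold difference.

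The count of calls depended on 1 control library. Without Usp7 control replicate 2, 18 of the 41 genes were called lower, beside 10.4% of all genes (1738 of 16721), and the median was -0.44. The median was -0.18 without control replicate 1, -0.41 without KD replicate 1 and -0.19 without KD replicate 2. The replicates of each group themselves differed for this set, since 37 of the 41 genes were higher in replicate 1 than in replicate 2 of the KD libraries and 36 in the controls, with a median log2 gap of 0.16 in KD and 0.23 in controls. Over all genes those gaps were 0.00 in KD and -0.01 in controls. Without control replicate 1, 32 of the 41 genes lay below 0.

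The licensing genes lay below 0 in 8 of 8 cases, beside 51.6% of all genes, with a median log2 change of -0.32. For 7 of them both KD libraries lay below both controls, beside 23.4% of all genes. Mcm6, a helicase subunit gene, had the largest of these changes, with 312 and 267 CPM in Usp7 KD libraries and 423 and 392 CPM in controls (log2 change -0.49, SE 0.20, adjusted p = 0.23). Cdt1 had 184 and 210.1 CPM in KD and 306 and 239.9 CPM in controls (log2 change -0.47, SE 0.20, adjusted p = 0.27). Mcm5 had 754 and 662 CPM in KD and 955 and 811 CPM in controls, and Mcm3 had 523 and 482 CPM in KD and 704 and 614 CPM in controls. Each of these genes had separate groups. Mcm7 was the licensing gene whose groups overlapped, at 697 and 568 CPM in KD and 785 and 632 CPM in controls.

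The helicase activation genes had the lowest median of the 8 roles, at -0.44 on the log2 scale. Gins2 had 52.1 and 47.2 CPM in Usp7 KD libraries and 82.5 and 61.7 CPM in controls (log2 change -0.54, SE 0.20, adjusted p = 0.21), with separate groups; its exons overlap those of Gse1. Mcm10 had 184 and 174 CPM in KD and 259 and 254 CPM in controls (log2 change -0.52, SE 0.18, adjusted p = 0.18). For Mcm10 the replicates of each group lay close together and the groups apart.

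The largest changes in Usp7 KD libraries were in Tk1, Rfc4, Pola2 and Lig1, each below its controls in both KD libraries. Tk1 had 62.9 and 42.3 CPM in KD and 94.6 and 71.9 CPM in controls (log2 change -0.66, SE 0.23, adjusted p = 0.18). Rfc4 had 39.0 and 26.7 CPM in KD and 55.7 and 43.6 CPM in controls (log2 change -0.59, SE 0.23, adjusted p = 0.22). Pola2, the accessory subunit of polymerase alpha, had 90.0 and 80.2 CPM in KD and 135 and 121 CPM in controls (log2 change -0.59, SE 0.18, adjusted p = 0.13). Lig1, the ligase that seals Okazaki fragments, had 267 and 226 CPM in KD and 403 and 339.6 CPM in controls (log2 change -0.59, SE 0.20, adjusted p = 0.16). All 4 were called without Usp7 control replicate 2, a fit that leaves 1 control library and cannot measure the spread between controls. Pola2 had the lowest adjusted p of the 41 and was also called with a GC and length offset. Pcna had 457 and 395 CPM in KD and 640.4 and 498 CPM in controls (log2 change -0.42, SE 0.21, adjusted p = 0.36), also without overlap.

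The 3 genes above 0 in Usp7 KD libraries were Pole, Fen1 and Orc4, of which Pole and Orc4 turned below 0 with the GC and length offset (log2 changes -0.04 and -0.16). Pole had 208 and 224 CPM in KD and 169 and 221 CPM in controls, which overlapped (log2 change 0.15, SE 0.20, adjusted p = 0.76). Fen1 had 19.6 and 20.1 CPM in KD and 18.7 and 17.8 CPM in controls (log2 change 0.12, SE 0.21, adjusted p = 0.82), and most of its exon bases are shared with Tmem258 and Gm10143. Orc4 had 37.7 and 35.4 CPM in KD and 32.9 and 35.0 CPM in controls (log2 change 0.11, SE 0.19, adjusted p = 0.83). For Fen1 and Orc4 both KD libraries lay above both controls, by a narrow margin. The next genes in that order, just below 0, were Rfc1, with 186 and 159.6 CPM in KD and 169.8 and 187 CPM in controls, and Orc2, with 91.4 and 87.0 CPM in KD and 102 and 84.8 CPM in controls. Both overlapped, with log2 changes of -0.05 for Rfc1 and -0.07 for Orc2.

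**Figure D4:**
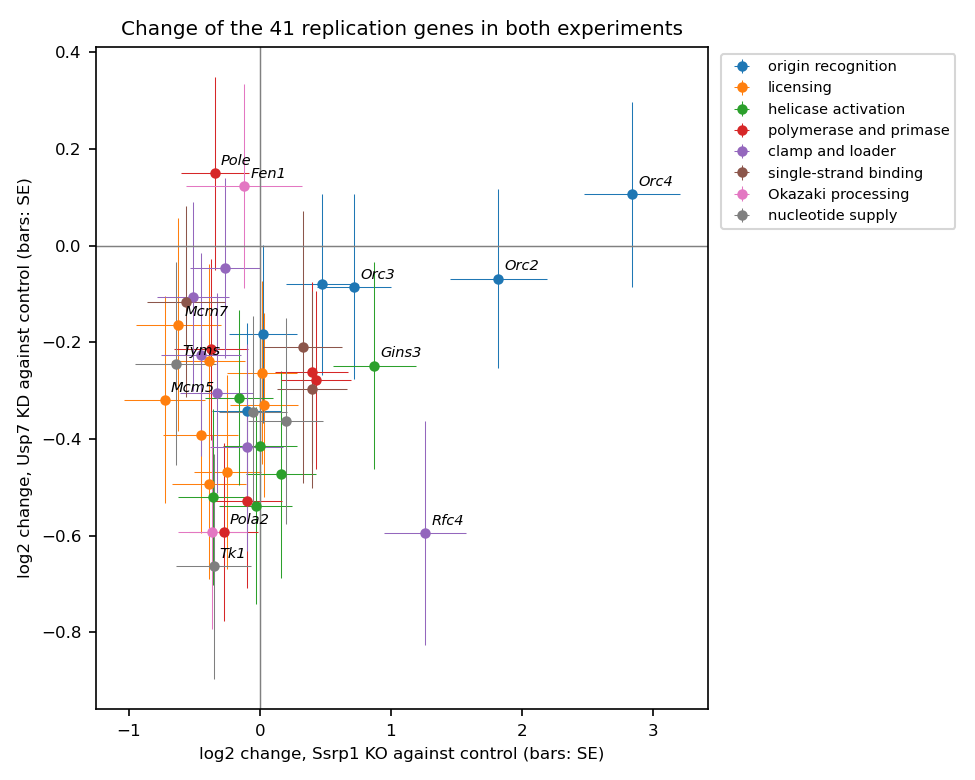
Log2 change in libraries labelled Ssrp1 KO (x axis) and in Usp7 KD libraries (y axis), each against its own control, for the 41 genes coloured by role, with bars of 1 SE. Orc4 and Orc2 lie far right at 2.84 and 1.82 and near 0 on the y axis, and Rfc4 lies right and low at 1.26 and -0.59.

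The experiments have separate controls, so their difference could be tested as the Ssrp1 KO change minus the Usp7 KD change in 1 fit of the 8 libraries. Orc4 was the 1 member called higher, beside 0.61% of all genes (104 of 17052), and 0 were called lower, beside 0.393% (67 of 17052). At an unadjusted p under 0.05 there were 5 members higher and 0 lower, where 9.19% of all genes were higher and 5.95% lower. DESeq2 called 3 members higher (2.49% of all genes) and 0 lower (1.46%). For Orc4 the difference was 2.69 on the log2 scale (SE 0.38, adjusted p = 0.013). It lost its call without Ssrp1 control replicate 1, at 2.36 (adjusted p = 0.069), without any 1 of the 4 Usp7 libraries (adjusted p = 0.052 to 0.16), and with the GC and length offset, at 1.85 (adjusted p = 0.085). For Orc2 the difference was 1.85 (SE 0.44, adjusted p = 0.076) and for Rfc4 1.81 (SE 0.41, adjusted p = 0.068), which DESeq2 called at 0.0052 for Orc2 and 0.0051 for Rfc4. On the other side Pole had a difference of -0.54 (SE 0.29, adjusted p = 0.42), Mcm7 of -0.52 (SE 0.40, adjusted p = 0.60) and Rpa2 of -0.51 (SE 0.38, adjusted p = 0.58). The median difference of the 41 genes was 0.23, against 0.00 over all genes, with 28 above 0 (50.3% of all genes) and 13 below (49.7%).

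The wider pathway, taken as 75 genes in 6 lists, held 4 genes that passed the test in libraries labelled Ssrp1 KO, beside 3.71% of all genes, and 4 in Usp7 KD libraries, beside 2.99% of all genes. The counts per list that follow stand beside 3.39% of all genes higher and 0.324% lower for Ssrp1 KO. Among 12 licensing and firing regulators, 1 rose and 0 fell in Ssrp1 KO. This was Rif1, which restrains origin firing and sets replication timing, with 444 and 199 CPM in KO and 53.7 and 103 CPM in controls (log2 change 2.04, SE 0.42, adjusted p = 0.028). Among 20 other fork genes 1 rose, Tipin, a partner of Timeless in fork protection, with 173 and 142 CPM in KO and 81.0 and 62.1 CPM in controls (log2 change 1.14, SE 0.28, adjusted p = 0.049). Both KO libraries of each gene lay above both controls. With the GC and length offset neither was called, at 1.09 for Rif1 (adjusted p = 0.11) and 0.22 for Tipin (adjusted p = 0.74). Tipin was also not called with RLE factors (adjusted p = 0.059) or limma-voom (adjusted p = 0.054). The largest change downward was that of Mtbp among the regulators (log2 change -0.23) and of Rnaseh2a among the fork genes (log2 change -0.54). Top1, which relieves torsion ahead of forks, had the largest upward change of the fork list without passing (log2 change 1.25, SE 0.39, adjusted p = 0.11).

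Of the 17 E2F and RB factors and S-phase cyclins, 1 rose and 1 fell in libraries labelled Ssrp1 KO. Ccne2, one of the cyclins that drive Cdk2 into S phase, had 21.5 and 13.1 CPM in KO and 3.21 and 3.00 CPM in controls (log2 change 2.48, SE 0.47, adjusted p = 0.019). It was not called with the GC and length offset (log2 change 0.98, adjusted p = 0.23). E2f8, an atypical E2F that represses transcription, had 12.8 and 12.3 CPM in KO and 31.2 and 34.6 CPM in controls (log2 change -1.39, SE 0.33, adjusted p = 0.043). Its KO libraries stood below both controls and close to each other, and it was not called in limma-voom (adjusted p = 0.057). Without Ssrp1 control replicate 1 none of the 4 calls held (adjusted p = 0.25 for Rif1, 0.23 for Tipin, 0.22 for Ccne2 and 0.32 for E2f8). Without control replicate 2 those of Tipin (adjusted p = 0.20), Ccne2 (0.078) and E2f8 (0.17) were lost, and without KO replicate 1 that of Tipin (0.12). None of 9 genes for chromatin assembly at forks, 10 other nucleotide supply genes and 7 replication checkpoint genes passed the test in that comparison. The largest of their changes were those of Rrm2b, the p53-inducible subunit of ribonucleotide reductase (log2 change 1.31, SE 0.49, adjusted p = 0.18), and Chek1, the checkpoint kinase gene (log2 change 0.99, SE 0.33, adjusted p = 0.13). Of the chromatin assembly genes Asf1a had the largest upward change (log2 0.60, and -0.57 with the GC and length offset) and the targeted Ssrp1 the largest downward one. Shmt1 (log2 change -0.68) and Rad9a (log2 change -0.32) had the largest downward changes of the nucleotide and checkpoint lists.

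In Usp7 KD libraries, 3 of those 17 factors and cyclins rose and 0 fell, beside 2.36% of all genes higher and 0.628% lower. E2f6, an E2F that represses its targets without RB, had 69.6 and 79.6 CPM in KD and 30.8 and 35.2 CPM in controls (log2 change 1.18, SE 0.19, adjusted p = 0.010). Rb1, the retinoblastoma gene, had 32.7 and 33.1 CPM in KD and 12.8 and 16.9 CPM in controls (log2 change 1.15, SE 0.22, adjusted p = 0.021). Rbl2, which encodes the RB relative p130, had 27.6 and 25.1 CPM in KD and 10.2 and 14.9 CPM in controls (log2 change 1.07, SE 0.24, adjusted p = 0.043). The KD libraries of each stood above both controls. In libraries labelled Ssrp1 KO, Rb1 had 12.1 and 21.5 CPM, against 5.70 and 8.82 CPM in controls. That change did not pass the test (log2 1.21, SE 0.45, adjusted p = 0.18 in edgeR). E2f6 and Rbl2 had log2 changes of -0.44 and -0.19 there. In Usp7 KD libraries the list as a whole had a median of -0.06, with 12 of 17 below 0. Among these was the cyclin gene Ccne1 (log2 change -0.77, SE 0.21, adjusted p = 0.083).

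Among the 9 chromatin assembly genes 1 fell in Usp7 KD libraries, beside 0.628% of all genes, and 0 rose. Chaf1b, a subunit of the CAF-1 chaperone that deposits histones behind forks, had 55.5 and 45.1 CPM in KD and 93.7 and 86.2 CPM in controls (log2 change -0.84, SE 0.19, adjusted p = 0.044). Both KD libraries lay below both controls. Pold2, a subunit of polymerase delta outside the 41, had 85.5 and 67.2 CPM in KD and 152 and 122 CPM in controls (log2 change -0.85, SE 0.20, adjusted p = 0.053), and Shmt2, of mitochondrial one-carbon metabolism, had 237 and 273 CPM in KD and 477 and 408 CPM in controls (log2 change -0.79, SE 0.20, adjusted p = 0.062). Neither passed the test. No gene of the regulator, other fork, other nucleotide supply and checkpoint lists was called in the KD comparison. Rif1 and Gmnn, the gene of the Cdt1 inhibitor geminin, had the largest changes of the regulators, at 0.47 and -0.60 on the log2 scale. Rad9a and Chek1 had those of the checkpoint list, at 0.71 and -0.38. Upward, Rrm2b led the nucleotide list at 0.71, Pole3 the fork list at 0.20 and Supt16 the chromatin list at 0.13. The calls of Chaf1b, E2f6, Rb1 and Rbl2 were each lost without Usp7 KD replicate 2 (adjusted p = 0.89 for Chaf1b, 0.38 for E2f6, 0.41 for Rb1 and 0.47 for Rbl2). Without KD replicate 1 those of Chaf1b (0.19), Rb1 (0.071) and Rbl2 (0.21) were lost, and without control replicate 1 that of Rbl2 (0.055). With no filter all 4 calls were lost (adjusted p = 0.16 for Chaf1b, 0.071 for E2f6, 0.11 for Rb1 and 0.17 for Rbl2), and in the joint fit of 8 libraries those of Chaf1b (0.24), Rb1 (0.22) and Rbl2 (0.32).

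**Figure D5:**
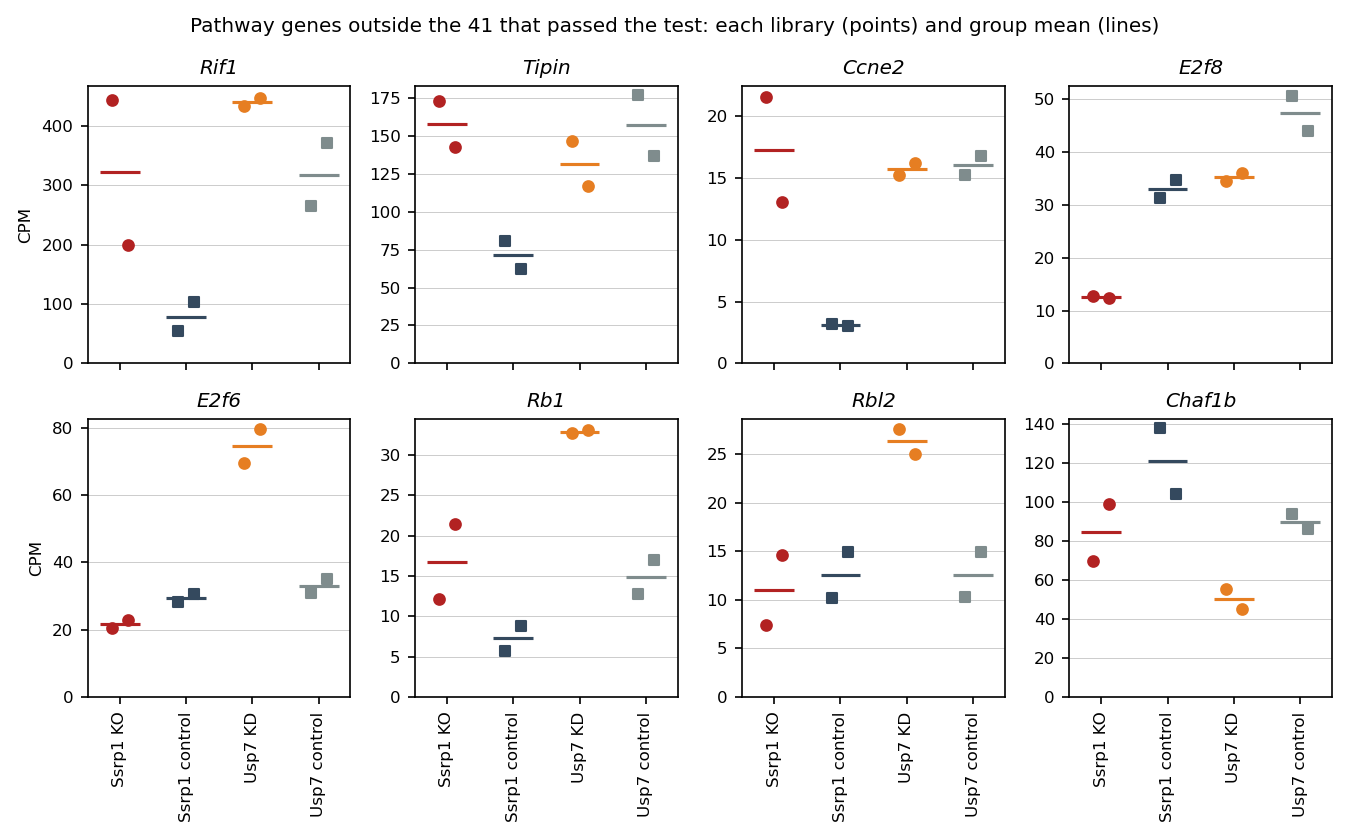
CPM (y axis, from 0) of the 8 pathway genes outside the 41 that passed the test, in the libraries (points) of the 4 groups on the x axis, with lines at group means. Rif1, Tipin, Ccne2 and E2f8 passed in the Ssrp1 experiment, and E2f6, Rb1, Rbl2 and Chaf1b in the Usp7 experiment.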

How the data were processed

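The deposited values were counts of reads per gene, in 1 table of 4 libraries per experiment. Per the submitters' processing notes, cutadapt, HISAT2 and featureCounts were used with mm10; versions, annotation and strand setting: not given in the sources used here. All 92 spike-in sequences had a count of 0 and were left out. The GENCODE annotation of GRCm38 gave symbols, exon length and GC content. Groups came from the sample titles.

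Each experiment was fitted with edgeR 4.0.16 (R 4.3.3) on its 4 libraries: filterByExpr, TMM factors, the quasi-likelihood F test, and Benjamini-Hochberg adjustment over all genes tested, with a gene called at an adjusted p under 0.05. A joint fit of 8 libraries tested the difference of the changes. CPM are TMM-scaled within an experiment. Standard errors came from the log2 change and the F statistic. The steps were tested on simulated counts with 200 changed genes. At a log2 change of 1 in either direction they recovered 10% of the changed genes for Ssrp1, 59% for Usp7 and 3% for the difference. At a log2 change of 2 these shares were 66%, 96% and 66%. A gene that did not pass the test may therefore still have changed. The alternatives were RLE factors, DESeq2 1.42.0, limma-voom (limma 3.58.1), no filter, a replicate block, a GC and length offset from splines with 5 degrees of freedom, the joint fit, and leaving out each library. TMM factors over all 8 libraries, for levels, were added after seeing the data. The 41 genes and the pathway lists were chosen with earlier results of these data known. Full values are given for members called in a comparison, the 5 with the largest change per direction in each experiment (3 for the difference), the 3 highest and 3 lowest per kilobase, and called pathway genes; of each pathway list the gene with the largest change per direction is also named. Other members are named by role. No set test was run.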

Additional observations from a re-analysis of the deposited data

Results flagged for a closer look

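By the test of the difference itself, in a joint edgeR fit of the 8 libraries, the change differed between the experiments for 1 of the 41 replication genes. It also differed for 2 of the 75 genes of the wider pathway. Over all genes the share called was 1% (171 of 17052). Orc4, which encodes a subunit of the origin recognition complex, had a difference of 2.69 on the log2 scale in that fit (adjusted p = 0.013), while the separate fits gave changes of 2.84 in libraries labelled Ssrp1 KO and 0.11 in Usp7 KD libraries. The Orc4 call was lost with the GC and length offset and without some single libraries, as given above. Ccne2, an S-phase cyclin gene, had a difference of 2.45 (SE 0.45, adjusted p = 0.031). E2f6, a repressive E2F gene, had a difference of -1.67 (SE 0.31, adjusted p = 0.031), being called higher in Usp7 KD libraries and not called in those labelled Ssrp1 KO. The calls for Ccne2 and E2f6 were lost without either Ssrp1 control library or any 1 of the 4 Usp7 libraries (adjusted p = 0.076 to 0.25 for Ccne2 and 0.058 to 0.27 for E2f6), and that for Ccne2 also in limma-voom (adjusted p = 0.054) and with the GC and length offset (log2 difference 1.21, adjusted p = 0.18). With 2 libraries per group, no library could be checked for standing apart from the others of its group.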

How the results depend on the processing

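The directions below refer to libraries labelled KO or KD against their controls. For the Ssrp1 comparison, 2 members were called higher (3.39% of all genes), and the GC and length offset left 1 (1.48% of all genes). The median of -0.10 moved to -0.30 with that offset, and to between -0.24 and -0.02 without single libraries. For the Usp7 comparison, 0 members were called lower; the offset gave 1, and leaving out single libraries 0 to 18, with 18 reached without control replicate 2. Of all genes in the Usp7 comparison, 0.628% were called lower in the main fit and 1.73% with the offset. The share for the fit without control replicate 2 is given above. The Usp7 median of -0.30 ranged from -0.44 to -0.18. For the difference, 1 member was called higher (0.61% of all genes). DESeq2 (2.49% of all genes) and no filter (2.01%) each gave 3, and the offset 0 (0.352%). In each comparison the count also moved without single libraries, in fits that leave 1 library in a group.

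The labels number replicates alike in both groups, but with 2 pairs per experiment the numbers were not taken to pair the libraries; deviations of same-numbered libraries correlated at 0.178 (Ssrp1) and 0.163 (Usp7) across genes. With a replicate block, 3 members were called higher for Ssrp1 (5.36% of all genes), 4 lower for Usp7 (Pola2, Rfc4, Lig1 and Tk1; 3.19% of all genes) and 3 higher for the difference (1.88% of all genes).

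Over all genes, the 585 Ssrp1 calls became 307 with the offset, 1497 with no filter, 1109 with DESeq2, 1314 in the joint fit, 988 with the block and 20 to 1884 without single libraries. The 476 Usp7 calls became 759 with the offset, 100 with no filter, 78 in the joint fit, 1471 with the block and 42 to 3770 without single libraries. The 171 calls for the difference became 673 with DESeq2, 945 with no filter, 525 with the block and 1 to 1109 without single libraries.

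Of 57 results for single named genes, 14 were called; over their alternatives, 53 lost a call, 53 gained one, 536 kept direction and side of the threshold, and 9 changed sign, none of them called on either side. In the Ssrp1 comparison the offset turned Orc3 to -0.32, Asf1a to -0.57 and Supt16 to -0.09, and leaving out KO replicate 2 turned Usp7 to 0.07. In the Usp7 comparison the offset turned Pole to -0.04 and Orc4 to -0.16. Without Usp7 control replicate 1 Pole stood at -0.03 and Supt16 at -0.01, and without control replicate 2 Pole3 stood at -0.08. Without single libraries these ranged from -0.27 to 0.07 for Usp7 in the Ssrp1 comparison, and in the Usp7 comparison from -0.03 to 0.35 for Pole, -0.08 to 0.54 for Pole3 and -0.01 to 0.27 for Supt16. Over all 41 members, 11 Ssrp1 signs changed with the offset, among them those of Orc3, Orc5, Prim1 and Pola1. The cause of these shifts was not tested.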
